A study of Mus musculus with 7 samples.

Results

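The genes of the cAMP, PKA and CREB signalling pathway were examined in ribosome-bound RNA from mouse medial prefrontal cortex (mPFC). The 45 genes were taken by symbol and not by their values, and 42 of them had an expression value, among 22180 measured genes. Where a gene had several probe sets, the one brightest on average across the 7 arrays stood for it. Adcy3 and Atf1 had only probe sets shared with another gene symbol, and Rapgef4 had no named probe set, so these 3 were left out.

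The mice carried a Cre-dependent GFP tag on ribosomes and a Cre transgene driven by Arc, a gene that neurons switch on when active. Tamoxifen enabled Cre during the experience, so that cells active at that time kept tagged ribosomes, which an anti-GFP antibody (ab290) then pulled down from mPFC. The cocaine group (15 mg/kg for 2 days) had 4 arrays, numbered 4, 5, 6 and 7. The shock group (20 shocks, each 2 s long at 0.5 mA, for 2 days) had 3 arrays, numbered 4, 5 and 6. Both groups shared the transgenes, tamoxifen and antibody. Only cells that drive Arc can be labelled, and the labels give no strain, age or pooling of animals. Nothing in the labels ties the arrays to separate animals, so p-values speak only of array-to-array spread, part or all of which may be technical. Tissue of mice without either experience was not analysed here.

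Cyclic AMP is made by adenylyl cyclases, which the stimulatory G protein switches on and the inhibitory G proteins restrain, and it is broken down by phosphodiesterases. It frees the catalytic subunits of protein kinase A (PKA) from their regulatory subunits, and it also acts through Rap exchange factors of the Epac type. PKA phosphorylates the transcription factor CREB, which then recruits coactivators and drives activity-regulated genes, a chain of events long studied in drug-induced and fear-related plasticity.

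Expression values are on the log2 scale, and differences are cocaine minus shock. The array medians ran from 5.44 to 5.47, so each difference is relative to the bulk of the array. Cocaine array 6 had the lowest mean correlation with the other arrays over all genes (0.993, against 0.9955 to 0.9961 for the others). The cocaine array 6 value was the lowest of the 7 for 35.7% of the measured pathway genes (15 of 42) and for 20.8% of all genes. Identical values on 2 or more arrays occurred in 30 of the 42 genes and in 66.9% of all genes, which makes some spreads very small. By its mean over the 7 arrays only Pde4c lay under 5.46, the background level taken from chemosensory receptor genes. Pde1c had a shock mean of 5.38, under that level, and Pde3a (5.43) and Pde3b (5.39) dropped below it on cocaine array 6. Among neuronal markers the excitatory list (7 measured, none under the background level) averaged 9.94 to 10.01 on the cocaine arrays and 9.91 to 9.98 on the shock arrays. The inhibitory list (8 measured, only Pvalb under the background level) averaged 8.24 to 8.37 on the cocaine arrays and 8.33 to 8.52 on the shock arrays.

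Across the pathway, levels in the pull-downs of the cocaine and shock groups lay close together. No input or untagged sample was analysed here, so any RNA from unlabelled cells in the pull-downs was not measured. In such pull-downs from tissue, fewer cells of a type and less RNA per cell cannot be told apart. No pathway gene passed the adjusted threshold (limma, adjusted p under 0.05 over all genes), nor did any of the 22180 genes (0%, smallest adjusted p = 0.938), while 688 genes had an unadjusted p under 0.05. Of the 42 genes, 22 had a higher and 20 a lower mean in the cocaine group, with a median difference of 0.0029, beside 50.9% higher and a median of 0.0016 over all genes. The higher count was 27 when each array was centred on its median and 14 without cocaine array 7. The difference was under 0.1 in size for 38 of the 42, and the median size was 0.030, against 0.051 over all genes. The 95% interval of the difference (limma, not adjusted) lay within 0.25 of 0 for 34 genes and within 1.5-fold for 41, Sik1 being the exception. An unadjusted p under 0.05 was found for 2 of the 42, Pde11a and Gnai2, where 3.10% of all genes had one. Both had lower values in the cocaine group, as 1.57% of all genes did at that p. This count was 1 without cocaine array 7 or shock array 4 (Pde11a in both), and 3 without shock array 5, where Pde1a joined. Without shock array 6 it stayed at 2, with Prkar2b in place of Gnai2. The direction reversed for 22 of the 42 genes when one of the 7 arrays was left out, and 2 more came to exactly 0, so that 18 kept it throughout.

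**Figure D1:**
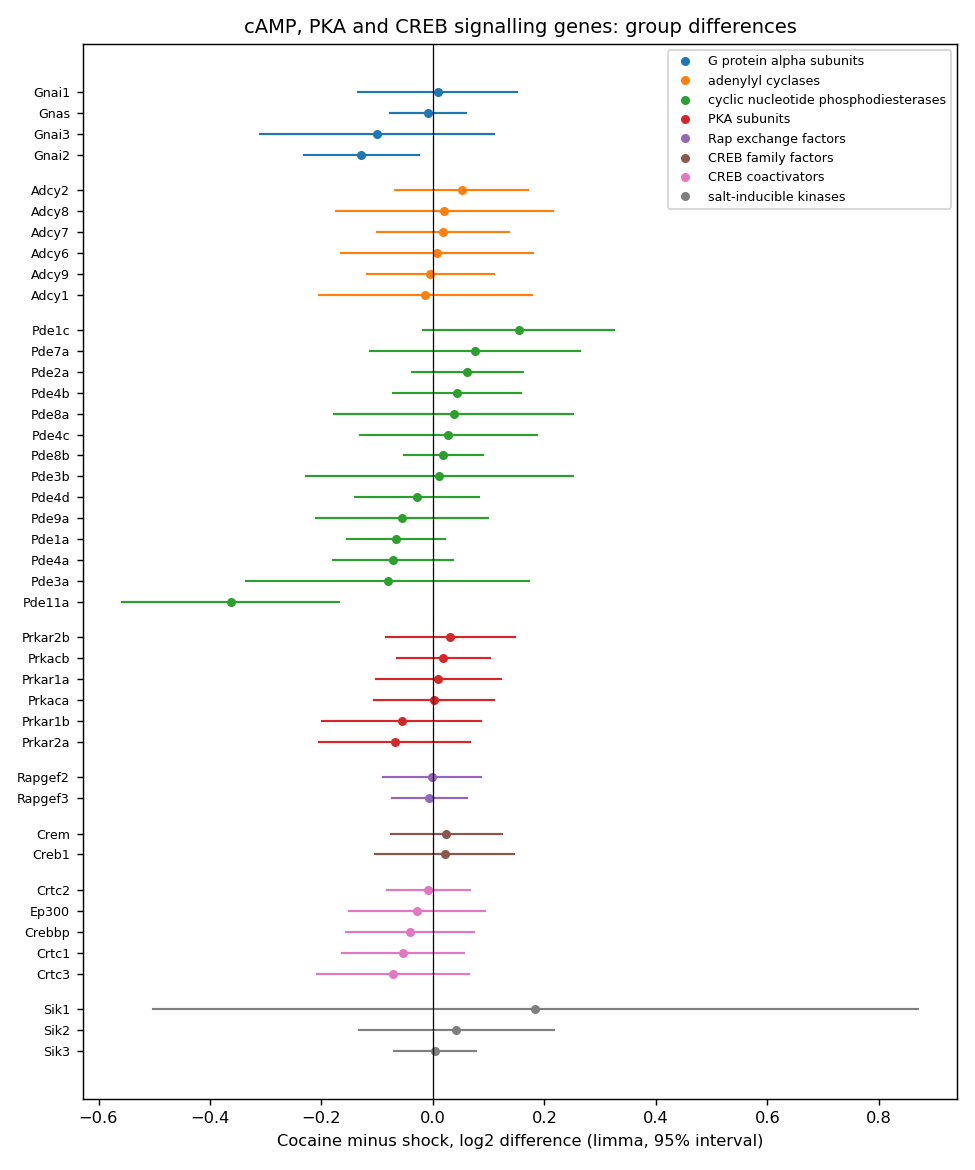
Difference between the cocaine and shock groups for each of the 42 measured pathway genes, in log2 units on the horizontal axis, grouped by role (colours). Points are limma estimates and bars are 95% intervals without adjustment. Most points sit within 0.1 of 0, Pde11a lies at -0.36, and Sik1 has the widest bar, from -0.50 to 0.87.

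Among the G protein subunits, Gnai2, which encodes an inhibitory alpha subunit that lowers cyclase activity, had lower values in the cocaine group. Its probe set (17530955, Entrez 14678) read 9.94, 9.94, 9.85 and 9.87 on cocaine arrays 4, 5, 6 and 7 and 10.07, 9.97 and 10.05 on shock arrays 4, 5 and 6. Every cocaine array was below every shock array, by a narrow margin between cocaine array 4 and shock array 5. The group means were 9.90 ± 0.05 (SD, n = 4) and 10.03 ± 0.05 (SD, n = 3). The difference of -0.13 (SE 0.04), or 1.09-fold, had an unadjusted p = 0.0220 and did not pass over all genes (limma, adjusted p = 0.938). The difference lay between -0.16 and -0.11 when single arrays were left out, and its unadjusted limma p rose to 0.0712 without shock array 4, 0.0633 without shock array 6 and 0.0501 without cocaine array 7.

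Gnai3, a close relative of Gnai2, differed by -0.10 (SE 0.09), with values of 7.497 to 7.77 on the cocaine arrays and 7.56 to 7.81 on the shock arrays. Leaving out shock array 4 or 5 took that difference to -0.17 or -0.039. Gnai1 differed by 0.0083, with overlapping values, and by -0.035 without cocaine array 7. Gnas, which encodes the stimulatory alpha subunit, had the identical value 6.89 on 6 arrays and 6.86 on cocaine array 6. Another probe set shared between Gnas and its antisense gene was not used.

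The adenylyl cyclases showed no difference beyond the spread between arrays. Of the 6 measured, 4 had a higher and 2 a lower mean in the cocaine group, with differences between -0.014 and 0.052 and overlapping groups throughout. Adcy1, a calcium-stimulated neuronal cyclase, read 9.45, 9.57, 9.45 and 9.73 on the cocaine arrays and 9.56, 9.64 and 9.49 on the shock arrays. Its difference of -0.014 (SE 0.08) turned positive without cocaine array 4 (0.019), cocaine array 6 (0.020) or shock array 5 (0.025). Adcy8, the other calcium-stimulated cyclase measured, differed by 0.021 and ranged from 7.73 to 8.02, with cocaine array 7 the highest. The difference was -0.042 without that array, and -0.017 with shock array 5 left out. Adcy7, whose cocaine value was also highest on array 7, differed by 0.018 with that array and -0.0195 without it. Among these 6 the largest difference was that of Adcy2, a cyclase stimulated by G protein beta-gamma subunits, at 0.052 (SE 0.05). That difference ran from 0.029 (without cocaine array 7) to 0.085 (without cocaine array 4).

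Among the 14 phosphodiesterases, Pde11a stood lower in the cocaine group. PDE11A breaks down both cAMP and cGMP. The probe set of its gene (17386725, Entrez 241489) read 6.52, 6.32, 6.42 and 6.36 on cocaine arrays 4, 5, 6 and 7. On shock arrays 4, 5 and 6 it read 6.87, 6.59 and 6.84. Every cocaine value lay below every shock value, and shock array 5 was the nearest to the cocaine group. Group means were 6.41 ± 0.08 (SD, n = 4) and 6.77 ± 0.15 (SD, n = 3). The difference was -0.36 (SE 0.08, 95% interval -0.56 to -0.17), or 1.29-fold. It had the smallest unadjusted p of the pathway, 0.00328, and did not pass over all genes (limma, adjusted p = 0.938). Leaving out single arrays gave differences of -0.45 (without shock array 5) to -0.31 (without shock array 4), with unadjusted limma p between 0.000519 and 0.0160. Pde11a and Gnai2 were the 2 of the 42 genes whose groups did not overlap, a state found for 2.37% of all genes. By direction it was 1.11% with lower and 1.25% with higher values in the cocaine group, and 0 of the 42 were of the second kind.

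**Figure D2:**
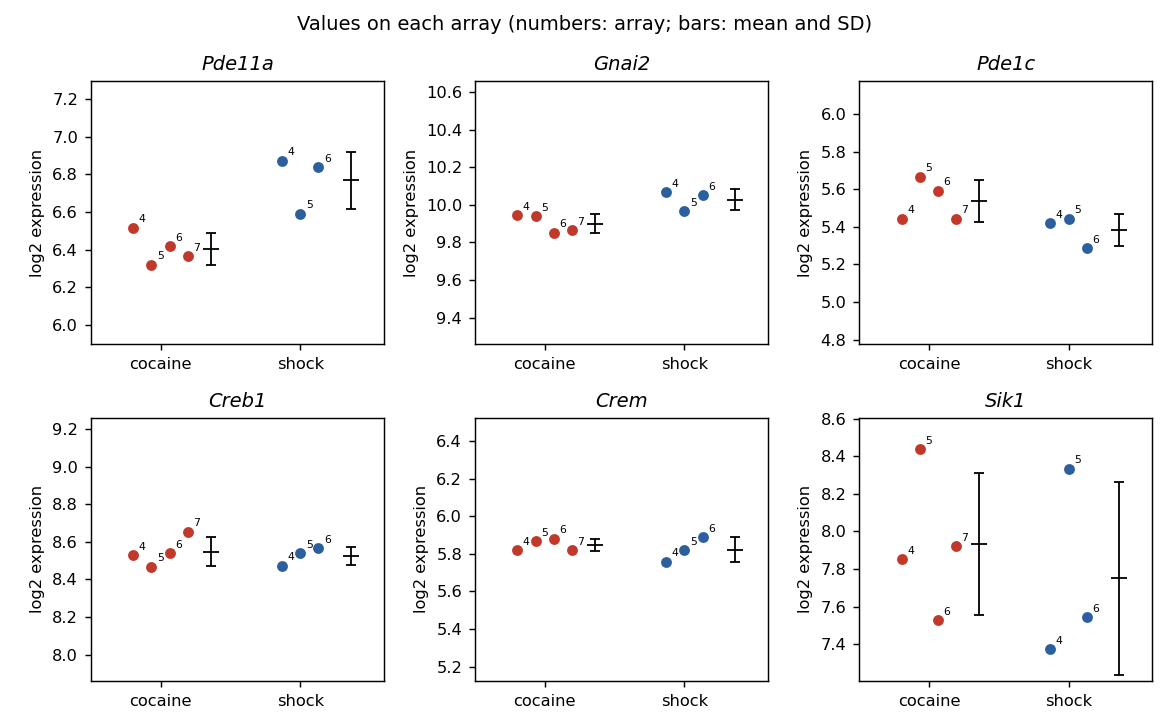
Log2 expression of 6 pathway genes on each array, with cocaine arrays in red and shock arrays in blue, labelled by array number. Black bars give the mean and SD of each group, and every panel spans 1.4 log2 units. Pde11a and Gnai2 have no overlap between the groups, while Sik1 spreads widely within both.

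Pde1c, one of the calcium- and calmodulin-stimulated enzymes, had a higher mean in the cocaine group, at levels around background. It read 5.44, 5.67, 5.59 and 5.44 on the cocaine arrays and 5.42, 5.44 and 5.28 on the shock arrays. The lower cocaine values equalled shock array 5, so the groups met. All 3 shock values and the lower pair of cocaine values lay under the background level of 5.46. Its difference of 0.15 (SE 0.07) is therefore taken against a group that was not above background. Pde1a, of the same calcium-stimulated class, had a difference of -0.066 (SE 0.04), and leaving out shock array 5 or shock array 6 gave -0.098 or -0.041.

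The cAMP-specific PDE4 enzymes are the targets of rolipram, and Pde4b and Pde4d are its members most often tied to mood and memory. Pde4b read 8.69, 8.64, 8.69 and 8.76 on the cocaine arrays and 8.70, 8.69 and 8.57 on the shock arrays. These overlapped, with a difference of 0.043 (SE 0.05, 95% interval -0.072 to 0.16) that came to 0.00042 without shock array 6. Pde4d had the identical value 6.11 on cocaine array 4 and all 3 shock arrays, and its difference of -0.028 became 0.0087 without cocaine array 6, where it read 5.97. The remaining 9 phosphodiesterase genes, Pde2a, Pde3a, Pde3b, Pde4a, Pde4c, Pde7a, Pde8a, Pde8b and Pde9a, had differences between -0.081 (Pde3a) and 0.076 (Pde7a), all with overlapping groups. Without cocaine array 6 the Pde3a difference was 0.019, and without shock array 6 that of Pde7a was 0.00062. Over the 14, 8 had a higher mean in the cocaine group and the median difference was 0.015.

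None of the 6 PKA subunit genes separated the groups, and their median difference was 0.0059. The catalytic subunit gene Prkaca read 10.56, 10.55, 10.51 and 10.53 on the cocaine arrays and 10.61, 10.55 and 10.45 on the shock arrays, a difference of 0.0019 (SE 0.04, 95% interval -0.11 to 0.11). For Prkacb, the other catalytic subunit gene, the 7 values ran from 11.13 to 11.22 with a difference of 0.019 (SE 0.03). The regulatory subunit genes differed by 0.031 (Prkar2b), 0.0098 (Prkar1a), -0.056 (Prkar1b) and -0.069 (Prkar2a). These subunits hold the kinase inactive until cAMP binds. For Prkar1b and Prkar2a the lowest value was that of cocaine array 6 (10.87 and 8.43), and without it the differences were -0.018 and -0.025. The Prkar2b difference was 0.086 without shock array 6 (limma, adjusted p = 0.978) and 0.0012 without shock array 5. The Rap exchange factor genes Rapgef2 (-0.0016) and Rapgef3 (-0.0063), whose products activate the small GTPase Rap, had values within 0.11 and 0.025 of each other over the 7 arrays.

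Creb1, which encodes CREB itself, did not separate the groups. It read 8.53, 8.47, 8.54 and 8.65 on cocaine arrays 4, 5, 6 and 7 and 8.47, 8.54 and 8.56 on shock arrays 4, 5 and 6. The difference of 0.021 (SE 0.05, 95% interval -0.10 to 0.15) gave p = 0.83 by exact permutation (two-sided), and 4 against 3 arrays cannot give less than 0.0286. Its sign turned when cocaine array 7 (-0.014) or shock array 4 (-0.0053) was left out. Crem encodes CREB-related factors and, from an inner promoter, the short inducible repressor ICER, and which of these transcripts the probe set reads was not examined. It read 5.82, 5.87, 5.88 and 5.82 on the cocaine arrays and 5.76, 5.82 and 5.89 on the shock arrays, a difference of 0.024 (SE 0.04, exact two-sided permutation p = 0.657). Without shock array 4 the Crem difference was -0.0078.

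All 5 CREB coactivator genes had a lower mean in the cocaine group, by 0.0084 to 0.072 and with overlapping values. CRTC proteins enter the nucleus on calcium and cAMP signals, and CBP and p300 are histone acetyltransferases. Crtc1, the main CRTC gene of neurons, read 10.52, 10.51, 10.50 and 10.63 on the cocaine arrays and 10.61, 10.63 and 10.54 on the shock arrays. Cocaine array 7 lay with the shock arrays, and the difference was -0.054 (SE 0.05, 95% interval -0.16 to 0.056). Crtc3 differed by -0.072 (SE 0.06), Crebbp by -0.041 (SE 0.05), Ep300 by -0.029 and Crtc2 by -0.0084. With single arrays left out, Crtc3 ran from -0.12 (shock array 6) to -0.039 (cocaine array 6), Crebbp from -0.062 (shock array 4) to -0.0099 (cocaine array 4) and Crtc1 from -0.084 (cocaine array 7) to -0.036 (shock array 5). Neither Ep300 nor Crtc2 kept its direction, with 0.0044 for Ep300 without shock array 6 and 0.0048 for Crtc2 without cocaine array 6.

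Sik1 varied far more between arrays than any other gene of the pathway. The salt-inducible kinases phosphorylate CRTC proteins and keep them out of the nucleus, and Sik1 is itself a CREB target, which makes it a feedback brake. Its probe set (17343263, Entrez 17691) read 7.85, 8.44, 7.53 and 7.92 on cocaine arrays 4, 5, 6 and 7 and 7.37, 8.33 and 7.55 on shock arrays 4, 5 and 6. Cocaine array 5 and shock array 5 were both high, and cocaine array 6 lay with shock arrays 4 and 6 at the low end. Group means were 7.93 ± 0.38 (SD, n = 4) and 7.75 ± 0.51 (SD, n = 3). The difference of 0.18 (SE 0.29, 95% interval -0.50 to 0.87) had an exact two-sided permutation p = 0.543. Leaving out cocaine array 5 or 6 gave 0.016 or 0.32, and leaving out shock array 4, 5 or 6 gave -0.0050, 0.48 or 0.082. The relatives Sik2 and Sik3 were steadier. Sik2 ranged over 0.30 with a difference of 0.042, and it turned negative without cocaine array 5 (-0.014) or shock array 6 (-0.0026). Sik3 ranged over 0.068 with a difference of 0.0040, which was -0.0087 without cocaine array 7.

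The within-group SD of Sik1 was 0.436, and 0.780% of all genes had a larger one. It was the 1 of the 42 pathway genes above 0.2, a level that 12.3% of all genes exceeded, and the pathway median was 0.064 against 0.093 over all genes. Among 22 activity genes known to be regulated by CREB, 16 exceeded 0.2 and the median was 0.408. That activity genes differ between these arrays was known when the list was drawn up, so it is a description only.

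**Figure D3:**
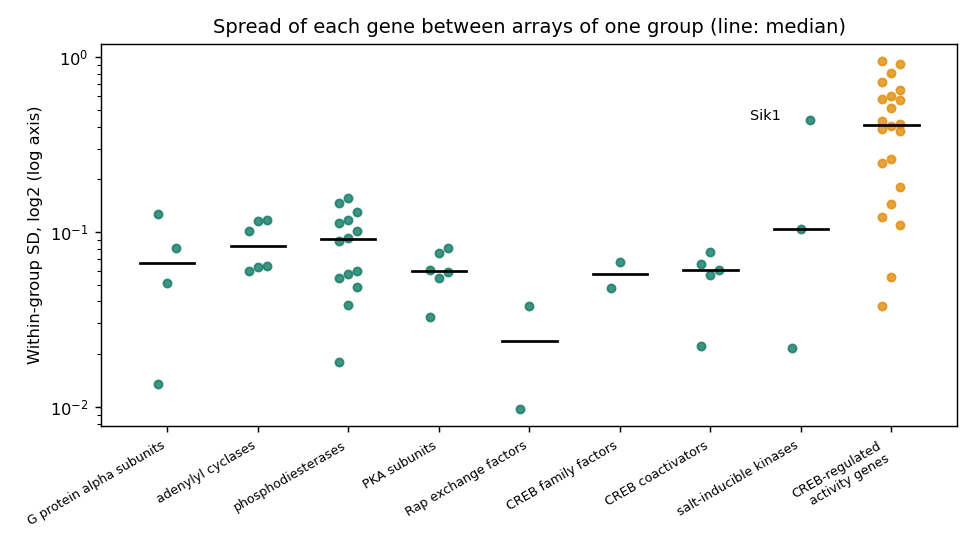
Within-group SD (log2 units, log axis) of each measured gene by role, with the pathway in green and the 22 CREB-regulated activity genes in orange. Black lines are medians. Sik1, at 0.436, lies among the activity genes and above every other pathway gene.

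The array order of Sik1 resembled that of the activity genes. Nr4a1, an orphan nuclear receptor gene induced through CREB, read 10.47, 10.94, 8.95 and 10.21 on cocaine arrays 4, 5, 6 and 7 and 8.93, 10.89 and 9.14 on shock arrays 4, 5 and 6. Fos read 8.36, 8.50, 7.34 and 8.13 against 6.54, 8.36 and 5.83, and Arc, whose promoter drove the labelling, read 9.62, 10.10, 8.77 and 9.53 against 8.42, 9.88 and 8.20. In each of these, as in Sik1, cocaine array 5 was highest and cocaine array 6 and shock arrays 4 and 6 were the lowest 3. Npas4, a neuronal activity factor, read 9.72, 9.30, 8.98 and 9.56 against 7.93, 9.11 and 6.68, with cocaine array 4 highest. Of the 22 activity genes 20 had a higher mean in the cocaine group, with a median difference of 0.39 and none past the adjusted threshold (limma). An unadjusted limma p under 0.05 was found for 4 of the 22 and for 3.10% of all genes. Cocaine array 6 and shock arrays 4 and 6 were the lowest 3 arrays for 16 of the 22 activity genes and for 2.31% of all genes. They were so for 2 of the 42 pathway genes, Sik1 itself among them. Cocaine array 5 and shock array 5 were the highest pair for 12 of the 22 and for 4.87% of all genes. Among the 42 they were so for 3, Sik1 itself, Sik2 and Gnai3. The mean of the activity genes, each centred on its own mean, was 0.46 on cocaine array 5 and 0.36 on shock array 5, and -0.21, -0.52 and -0.55 on cocaine array 6 and shock arrays 4 and 6. The same mean over the 42 pathway genes stayed between -0.046 and 0.027. The part of these differences between arrays in the Sik1 values was not tested.

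**Figure D4:**
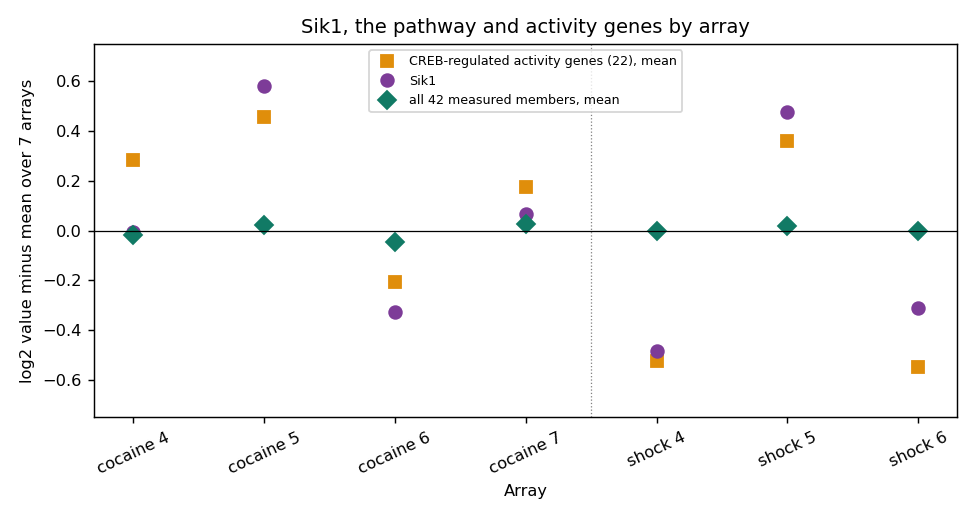
Log2 value minus the mean over the 7 arrays, by array, for Sik1 (purple circles), the mean of 22 CREB-regulated activity genes (orange squares) and the mean of the 42 pathway genes (green diamonds). Sik1 and the activity genes are high on cocaine array 5 and shock array 5 and low on cocaine array 6 and shock arrays 4 and 6, while the pathway mean stays between -0.046 and 0.027.

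The DNA element that CREB binds is the cAMP response element, TGACGTCA, of which TGACG is a half-site. The 250 bases before each annotated start (RefSeq, GRCm38.p6) were searched for both on either strand; a full site also counts as half-sites. Windows were found for 35 of the 45 pathway genes, and Sik1, Crem, Gnai2 and others had none in the table. A half-site occurred in at least one window of 14 of the 35 pathway genes (40%), of 15 of 18 activity genes (83.3%) and of 19.8% of all genes in the table, where genes with several starts have more windows to match. By window the shares were 24.7% of 73, 60% of 30 and 17.8%. Windows of one gene can overlap, so the same site can be counted in several windows, as happened for Prkar1a. The full element was found for 1 of the 35 pathway genes (2.86%), Prkar1a, for 2 of 18 activity genes (11.1%) and for 1.77% of all genes. A match is a run of letters and does not show binding. The sequences below set 2 pathway genes that varied less beside 2 activity genes that varied widely. Matches are in capitals, 5′ to 3′ on the strand of the gene. For Prkar1a, whose levels spanned 0.18 over the arrays, 28 bases around the full element are shown (chr11:109650890-109650917, plus strand). Its value was identical on 3 arrays, and the median span of the 42 pathway genes was 0.20. For Sik3, the 250 bases before the start (chr9:46012570-46012819, plus strand) hold 3 half-sites. Levels of Sik3 spanned 0.068, with an identical value on 4 arrays. The same stretches of Fos (chr12:85473640-85473889, plus strand) with 2 half-sites and Nr4a1 (chr15:101266596-101266845, plus strand) with 4 belong to genes whose levels spanned 2.68 and 2.01.
Prkar1a: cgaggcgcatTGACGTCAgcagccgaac
Sik3: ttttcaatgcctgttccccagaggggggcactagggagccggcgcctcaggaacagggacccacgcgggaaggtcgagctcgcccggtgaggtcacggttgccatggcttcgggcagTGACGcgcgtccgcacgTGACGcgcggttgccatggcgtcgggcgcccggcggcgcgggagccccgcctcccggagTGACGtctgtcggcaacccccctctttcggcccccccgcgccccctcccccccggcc
Fos: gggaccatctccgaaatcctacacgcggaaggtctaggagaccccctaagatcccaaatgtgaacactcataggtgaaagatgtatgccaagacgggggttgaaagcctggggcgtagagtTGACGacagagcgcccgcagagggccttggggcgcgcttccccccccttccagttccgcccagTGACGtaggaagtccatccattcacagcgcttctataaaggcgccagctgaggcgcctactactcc
Nr4a1: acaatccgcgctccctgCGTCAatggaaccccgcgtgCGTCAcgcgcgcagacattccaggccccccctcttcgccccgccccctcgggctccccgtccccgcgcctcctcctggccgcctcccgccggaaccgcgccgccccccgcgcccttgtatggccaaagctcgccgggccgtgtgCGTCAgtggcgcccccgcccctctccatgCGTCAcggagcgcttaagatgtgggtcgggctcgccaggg

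Further genes of the pathway were listed by role. Of 80 such genes, 72 were measured. None of these passed the adjusted threshold (limma), and 3 of the 72 had an unadjusted p under 0.05, where 3.10% of all genes had one. The groups did not overlap for 4 of the 72, where 2.37% of all genes had no overlap. Their median difference was 0.015, with 45 higher and 27 lower. Among the further cyclases, phosphodiesterases and G protein subunits (19 measured, 13 higher, median 0.043), the cyclase gene Adcy4 read 5.43, 5.62, 5.47 and 5.62 on the cocaine arrays and 5.76, 5.71 and 5.84 on the shock arrays. Cocaine array 4 lay under the background level. The groups did not overlap, with a difference of -0.24 (SE 0.06, limma unadjusted p = 0.00834, adjusted p = 0.938). Gng7, a gamma subunit gene abundant in striatum, differed by 0.11 (SE 0.04, limma adjusted p = 0.938) with no overlap. Pde10a, a phosphodiesterase gene of striatal neurons, differed by 0.17 (SE 0.07, limma adjusted p = 0.938), also with no overlap, and by 0.11 without shock array 6.

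The remaining lists held no gene with an unadjusted limma p under 0.05. PKA inhibitors, the PKA-related kinase gene Prkx and Rap genes (8 measured, 2 higher) had a median of -0.029, with Prkx at -0.19 (SE 0.10) and Rap2a at -0.078 (SE 0.05). Single arrays moved Prkx between -0.29 (without shock array 6) and -0.12 (without cocaine array 6), and Rap2a between -0.12 (without shock array 6) and -0.049 (without shock array 5). The A-kinase anchoring proteins, which place PKA at its targets, numbered 20 with 13 higher and a median of 0.010. Among them Akap5, the anchor of PKA at excitatory synapses, differed by 0.066 (0.0037 without shock array 4), and Rab32 by 0.067 (0.012 without shock array 4). Other bZIP factors, CREB kinases and phosphatases (18 measured, 14 higher) had a median of 0.032, with Creb3 at 0.075 and the phosphatase catalytic gene Ppp1cc at 0.059. These came to 0.044 for Creb3 without shock array 6 and 0.035 for Ppp1cc without shock array 5. The groups did not overlap for Ppp1cc (7.13 to 7.20 on the cocaine and 7.04 to 7.12 on the shock arrays), as for 2.37% of all genes. Constitutively active cAMP-raising receptors and PACAP-related genes (7 measured, 3 higher) had a median of -0.0024, with Vipr2 at 0.088 and its ligand gene Vip at -0.17. Vipr2 came to 0.043 without shock array 4, and Vip to -0.087 without cocaine array 4 and -0.27 without cocaine array 6.

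No marker of another cell type passed the adjusted threshold (limma), as no gene at all did, and the lists are described by counts and levels. An unadjusted limma p under 0.05 was found for 3 of 8 vascular, 2 of 7 striatal and 1 of 7 oligodendrocyte markers. No marker of the other lists had one, beside 3.10% of all genes. All 8 vascular markers had a lower mean in the cocaine group (median -0.28). Their mean level ran from 6.91 to 7.24 on the cocaine arrays and from 7.27 to 7.53 on the shock arrays, without overlap, and none lay under the background level. Centred on the mean over the arrays, the vascular list was lowest on cocaine array 7 (-0.32) and highest on shock array 6 (0.30). Gnai2, Adcy4 and Pde11a were also lower on every cocaine array than on any shock array, as were 1.11% of all genes. They are set beside the vascular list for that state, so sharing it is no separate result. All 3 were lowest among the shock arrays on array 5, as was the vascular list, and the share of all genes was not counted. Of the single vascular markers, Slco1a4, Pecam1, Vtn and Tek were lowest there too. Flt1, Kdr and Pdgfrb were lowest on shock array 4 and Cldn5 on shock array 6. Among the shock arrays Adcy4 and the vascular list were highest on array 6, and Gnai2 and Pde11a on array 4. Their lowest cocaine values were on arrays 6, 4 and 5 for Gnai2, Adcy4 and Pde11a, and on array 7 for the vascular list. All 8 astrocyte markers were lower too (median -0.17, 9.01 to 9.30 against 9.17 to 9.35). The mean level of the microglia markers (3 of 7 higher, median -0.095) ran from 6.06 to 6.10 against 6.10 to 6.16, without overlap by a narrow margin. Of 7 striatal markers 6 were higher in the cocaine group (median 0.14). Their mean level was 9.20 to 9.40 against 9.11 to 9.19, also without overlap by a narrow margin. Pde10a is itself one of these markers. The striatal list was highest on cocaine array 6, as were Pde10a and Pde1b, a phosphodiesterase gene named after its values were seen. Of the list, Drd2 was highest on cocaine array 4 and Tac1 on cocaine array 5, the other measured markers on cocaine array 6. Gng7, of the further genes, was highest on cocaine array 4. The list means of oligodendrocyte (5 of 7 higher, median 0.057), excitatory (4 of 7, 0.0073) and inhibitory markers (2 of 8, -0.10) overlapped between groups. Taken singly, 2 of 8 vascular, 2 of 7 striatal and 1 of 7 oligodendrocyte markers had no overlap. No marker of the other lists had that state, which was found for 2.37% of all genes. Pvalb was the only marker under the background level, and the part of these markers in the pathway values was not tested.

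**Figure D5:**
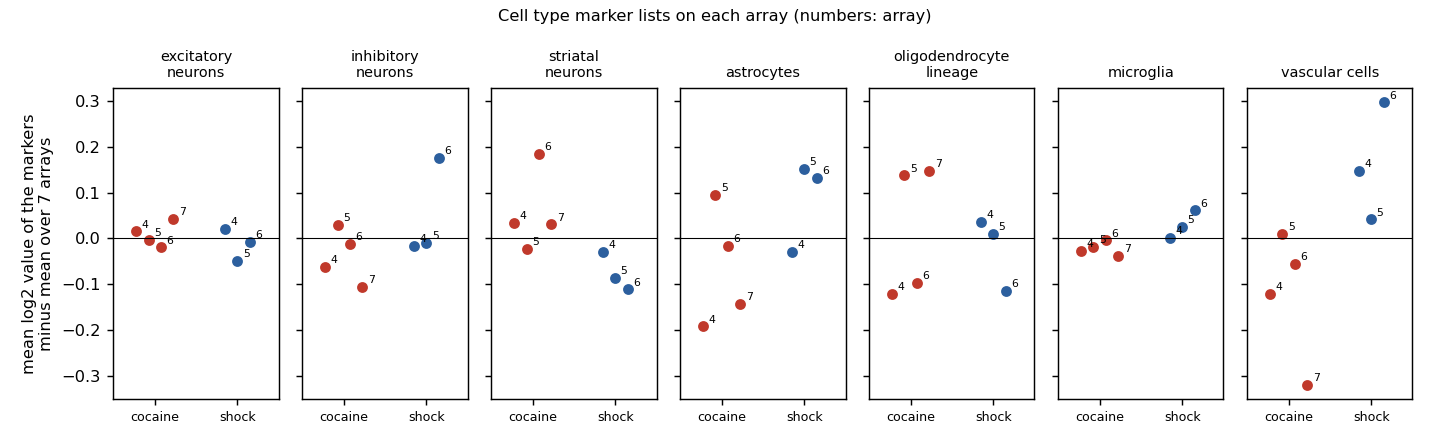
Mean log2 value of each cell type marker list, minus its mean over the 7 arrays, on each array (cocaine red, shock blue, labelled by array number). Vascular markers are lower on all cocaine arrays than on any shock array, and striatal markers are highest on cocaine array 6, at 0.19.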

How the data were processed

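The deposited values of 41345 probe sets on 7 one-colour arrays were used as log2 expression values, a scale read from the values (1.12 to 13.44). Transcriptome Analysis Console is the 1 tool in the submitters' processing notes. How probe sets were summarized, background-corrected, normalized or filtered is not given in the sources used here. Arrays have no read depth, and their number limits the precision.

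Groups came from the labels and array numbers from the titles. Of the probe sets, 23521 had 1 gene symbol in the platform annotation, 1814 had several and 16010 were not named. For each of 22180 genes the probe set with the highest mean was kept, and the Entrez identifiers of all 42 measured pathway genes carry the same symbol in a RefSeq table (GRCm38.p6). No source used here names the array's build, so no probe set positions are printed, and promoter positions are those of the RefSeq table. The background level, 5.46, is the 95th percentile over genes of olfactory and vomeronasal receptors.

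Differences came from lmFit and eBayes of limma 3.58.1 under R 4.3.3 (two-sided, no covariate, Benjamini-Hochberg over all genes at 0.05), and single values with an exact permutation over 35 divisions of the arrays. The scripts were tested on simulated data. Named genes were, per role, up to 3 pathway genes and, per further list, 2 genes of smallest unadjusted p, with Sik1, Crem, Creb1, Pde4b, Pde4d, Prkaca, Prkacb, Gnas, Adcy1, Fos, Npas4, Arc and Nr4a1 always included. Other pathway genes are named with values only, some after those were seen. The genes and lists were chosen with earlier results of these data known. As alternatives, single arrays were dropped, arrays were quantile-normalized or centred on their medians, dim genes were removed, probe sets of a gene were averaged, and the fit used trend and robust moderation, array weights or the title number as a block.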

Additional observations from a re-analysis of the deposited data

Results flagged for a closer look

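Within the 4 cocaine arrays, 7 of 64 measures had one array whose distance to the next, as a share of the range, passed Dixon's 95% limit, where chance passes about 5% (here 3.2) of independent measures without ties. The gap was 1 for Gnas (cocaine array 6 lowest), 1 for Adcy7 (cocaine array 7 highest) and 1 for Rapgef3 (cocaine array 5 lowest), in each case because the other 3 arrays had an identical value. It was 0.9806 for Prkx (cocaine array 6 lowest, with a tie), 0.8515 for Pde4d (cocaine array 6 lowest), 0.8593 for Ppp1cc (cocaine array 5 highest) and 0.8358 for the mean of the list of PKA inhibitors, Prkx and Rap genes (cocaine array 6 lowest). The Gnas and Rapgef3 values spanned only 0.035 and 0.025 on the cocaine arrays. With 3 arrays the shock group is too small for this rule.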

How the results depend on the processing

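No gene passed the adjusted threshold under any of the 14 alternatives run, and the median difference of the pathway genes stayed between -0.013 and 0.014, its sign turning in 5 of the fits. The count of pathway genes with an unadjusted p under 0.05 was 1 to 3 when single arrays were left out, and 1 with the title number as a replicate block. The count with higher values in the cocaine group was 14 to 24 when single arrays were left out, and 14 with the replicate block. The block fits cocaine array 7 its own term, so its differences equal those without that array. The deviations of same-numbered arrays from their group means correlated at 0.128, 0.064 and 0.158 over genes. Differently numbered arrays were not compared in this way, so whether the numbers mark pairs stays unknown. The main fit used no pairs. With the block the limma SE was 0.12 for Sik1, 0.048 for Pde11a and 0.052 for Gnai2. In the main fit these were 0.29, 0.082 and 0.043. With the replicate block, the differences reversed for Adcy7 (-0.0195), Adcy8 (-0.042), Creb1 (-0.014) and Sik3 (-0.0087). Under quantile normalization they reversed for Gnas (0.0018), Rapgef3 (0.010) and Rapgef2 (0.00014). Under median centring they reversed for Gnas (0.0026), Rapgef3 (0.0050) and Rapgef2 (0.0096), and with array weights for Rapgef2 (0.0020), Prkaca (-0.0040) and Adcy1 (0.0035). Leaving out single arrays gave Sik1 -0.0050 to 0.48, Crem -0.0078 to 0.057, Creb1 -0.014 to 0.048, Rapgef2 -0.034 to 0.021, Prkaca -0.042 to 0.037, Adcy1 -0.075 to 0.025, Adcy7 -0.0195 to 0.040, Adcy8 -0.042 to 0.073, Sik2 -0.014 to 0.078, Sik3 -0.0087 to 0.014 and Pde4d -0.046 to 0.0087. The cause of these reversals was not tested. The difference of Pde11a was -0.45 to -0.31 and that of Gnai2 -0.16 to -0.11 over the same fits. The other genes named by the rule kept their direction, apart from differences of exactly 0 for Gnas without cocaine array 6 and Rapgef3 without cocaine array 5. With 4 against 3 arrays, differences as small as most of these cannot be told from the spread.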
